A study of Mus musculus with 11 samples.

Results

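The genes described here are 50 mouse genes of striated muscle structure and calcium handling: the parts of the sarcomere, the contractile unit of skeletal and heart muscle, and the proteins that couple membrane excitation to calcium release. They were chosen by name from a list drawn up with their levels in these libraries in view, above all their high CPM in cells with the D18N allele of Trex1, and all 50 were found once each among the 53924 named lines of the gene count table. RNA-seq had been run on passage 2 cultures of MEFs, the mixed connective tissue cells that grow out of a minced mouse embryo, taken here at embryonic day 13.5. The study asked how alleles of Trex1, which encodes an exonuclease that degrades cytosolic DNA, differ in their effect on these cells. The groups were Trex1 D18N, an active-site missense allele, with 3 libraries, Trex1 p212fs, by its name a frameshift allele, with 2 libraries, Trex1-/- with 3 libraries and wild type (WT) with 3 libraries. No treatment is given for any group, the growth protocol names both primary and spontaneously immortalised MEFs without saying which were used here, and whether same-genotype libraries stem from different embryos or dishes is not stated in the labels or protocols. The p-values below therefore measure the spread between these libraries, which may be technical.

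In a sarcomere, thick filaments of myosin pull on thin filaments of actin, troponin and tropomyosin, with titin and nebulin as the giant scaffold proteins, the Z disc anchoring thin filaments and the M band anchoring thick ones. Depolarisation of the surface membrane is sensed by a voltage-gated calcium channel and passed to the ryanodine receptor, which releases calcium from the sarcoplasmic reticulum so that troponin lets myosin bind. Many of these proteins exist as embryonic, fetal and adult, or slow, fast and cardiac, isoforms encoded by separate genes, and developing skeletal muscle exchanges one set for the next. Fibroblasts are not known to build sarcomeres, although cultures from whole embryos can hold other cells.

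Library totals ran from 16059426 to 21748034 counts over named genes, and levels are given as CPM, counts scaled to a common total of 1e6 per library. Trex1 itself had a listed count of 0 throughout, also in the WT libraries, and so offers no check of the genotype labels. Xist and Y-linked genes showed a female pattern in the 3 WT libraries, in Trex1 D18N replicate 1 and in Trex1-/- replicate 2, and a male pattern in the other 6, among them both Trex1 p212fs libraries. The libraries of D18N, and likewise those of Trex1-/-, therefore did not all come from 1 embryo. Fibroblast markers were abundant everywhere: the 16 genes of that list summed to between 83106 and 96168 CPM in D18N, 29142 and 33929 CPM in p212fs, 60505 and 72022 CPM in Trex1-/-, and 58173 and 65980 CPM in WT. Macrophage markers were also present, with Lyz2 at 89.2, 46.8 and 39.9 CPM in the D18N libraries and 619, 768 and 673 CPM in the WT libraries.

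The 50 genes were chosen with their high level in D18N already known, so every comparison that holds D18N is given as a description. Where the number of genes past the test's threshold is printed for such a comparison, it stands for scale and supports nothing. Des, which encodes desmin, an intermediate filament protein also made by smooth muscle and stromal cells, was left out of the sums because it alone had 49 to 92.2 CPM in the libraries of the other genotypes. The other 49 genes summed to 3652, 1441 and 1481 CPM in D18N replicates 1, 2 and 3, to 83.8 and 78.7 CPM in p212fs, to 51.2, 25.6 and 37.0 CPM in Trex1-/- and to 35.5, 36.9 and 43.4 CPM in WT. Every D18N library lay far above all others, and D18N replicate 1 stood well above its 2 companions. The female D18N library was at 3652 CPM against 25.6 CPM in the female Trex1-/- library and 35.5 to 43.4 CPM in the female WT libraries. The male D18N libraries were at 1441 and 1481 CPM against 37.0 to 83.8 CPM in the male libraries of p212fs and Trex1-/-. No WT library had the male pattern, so within a sex pattern D18N could be set beside WT only through D18N replicate 1. These sums are of genes picked for their level in D18N and are no test of sex. In bulk RNA, a larger number of muscle cells and more muscle RNA per cell cannot be told apart.

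**Figure D1:**
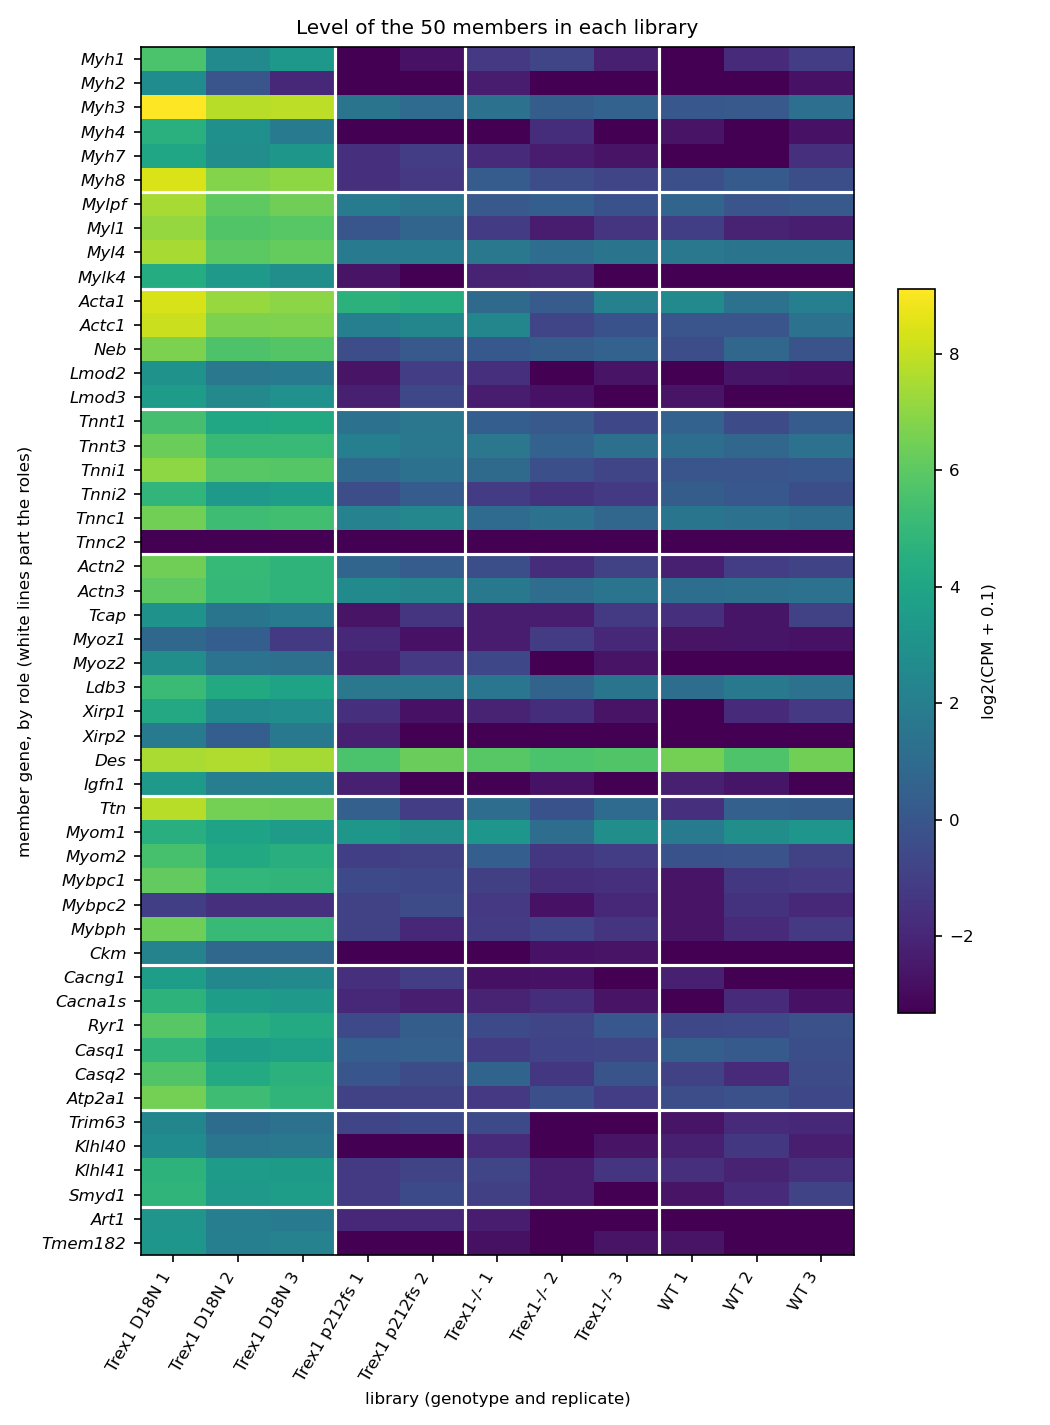
Level of the 50 members in the 11 libraries, as log2(CPM + 0.1) with colour running from dark (0 counts) to yellow (high), members grouped by role. The 3 Trex1 D18N columns are brighter than the others for most rows, Tnnc2 is at 0 throughout, Mybpc2, Myoz1 and Myh2 are dim in at least 1 D18N column, and Des is the brightest row in every column of the other genotypes.

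By edgeR's quasi-likelihood test, 47 of the 48 members that could be tested were past an adjusted p of 0.05 and higher in D18N than in WT, where 12.2% of all 16990 genes tested were called higher. Both are printed for scale only, since the members were picked on this contrast. The median log2 difference of the 48 was 6.54 (6.28 with the 5 genes at 0 in WT set to their bounds), beside 0.04 for all genes. The values ran from 1.26 for Des to 10.87 for Mylk4, a fitted value for a gene at 0 in WT. All 48 had each D18N library above each WT library, which 22.1% of all genes did. Myom1, which encodes myomesin, a cross-linker of thick filaments, was the member not past the threshold: it had 22.1, 14.7 and 11.7 CPM in D18N and 3.38, 6.91 and 9.11 CPM in WT, a log2 difference of 1.34 ± 0.47 (SE). Of the 2 members not tested, Mybpc2, the fast myosin-binding protein C, had 0.397, 0.221 and 0.223 CPM in D18N, 0.448 and 0.649 CPM in p212fs, 0.322, 0.0512 and 0.166 CPM in Trex1-/- and 0.0553, 0.249 and 0.163 CPM in WT, so that both p212fs libraries were above the D18N ones. Tnnc2, fast skeletal troponin C, had 0 counts in all 11 libraries, so its sum is under the 3 counts that a count of 0 allows. In the GENCODE M21 annotation of GRCm38, 74.0% of the exonic bases of Tnnc2 lie under Ube2c on the opposite strand, and Ube2c had 24.2 to 193 CPM in these libraries. The strand setting of the counting is not given in the sources used here, and the part of this overlap in the 0 was not tested.

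Myosin heavy chains, the motors of the thick filament, were led by the developmental forms. Myh3, the embryonic chain, had 556, 218 and 235 CPM in D18N, 2.69 and 1.95 CPM in p212fs, 2.39, 1.18 and 1.38 CPM in Trex1-/- and 0.941, 0.996 and 2.22 CPM in WT, a log2 difference of 7.91 ± 0.52 (SE) between D18N and WT. The 250 bases before its start (RefSeq, GRCm38.p6, chr11:67078050-67078299, plus strand) are shown because Myh3 was the most abundant myosin here, with capitals marking matches to the E-box CANNTG, the core that myogenic basic helix-loop-helix factors such as MyoD and myogenin bind.
Myh3: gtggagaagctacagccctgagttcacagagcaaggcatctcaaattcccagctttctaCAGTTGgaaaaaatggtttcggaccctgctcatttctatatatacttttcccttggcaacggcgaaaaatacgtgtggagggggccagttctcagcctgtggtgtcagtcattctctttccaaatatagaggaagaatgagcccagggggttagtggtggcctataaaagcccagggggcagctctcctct
Myh8, the perinatal or fetal chain, had 345, 112 and 128 CPM in D18N, 0.224 and 0.324 CPM in p212fs, 1.15, 0.665 and 0.497 CPM in Trex1-/- and 0.719, 1.06 and 0.705 CPM in WT. Both developmental genes were thus highest in D18N replicate 1, above 100 CPM in all D18N libraries, and under 3 in every other library. Among the adult fast chains, Myh1 (type IIx) had 48.9, 6.04 and 9.98 CPM in D18N, 0 and 0.0541 CPM in p212fs, 0.322, 0.512 and 0.110 CPM in Trex1-/- and 0, 0.187 and 0.380 CPM in WT. Myh4 (type IIb) had 23.4, 7.42 and 3.46 CPM in D18N, 0 CPM in both p212fs libraries, 0, 0.205 and 0 CPM in Trex1-/- and 0.0553, 0 and 0.0542 CPM in WT, and the D18N counts were 299 times the 2 WT counts (95% counting interval 82.3 to 2471). Myh2 (type IIa) had 6.47, 0.886 and 0.167 CPM in D18N and no more than 2 counts in any other library. The adult fast genes were thus concentrated in D18N replicate 1, and Myh2 in replicate 3 was close to the level of the other genotypes. Myh7, the slow and cardiac beta chain, had 15.5, 7.09 and 9.48 CPM in D18N, 0.224 and 0.378 CPM in p212fs, 0.184, 0.102 and 0.0552 CPM in Trex1-/- and 0, 0 and 0.217 CPM in WT. Its D18N libraries lay closer together than those of the fast chains. These chains are close relatives, 5 of them encoded side by side on chromosome 11, and reads shared between them could be split or lost in the counting.

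**Figure D2:**
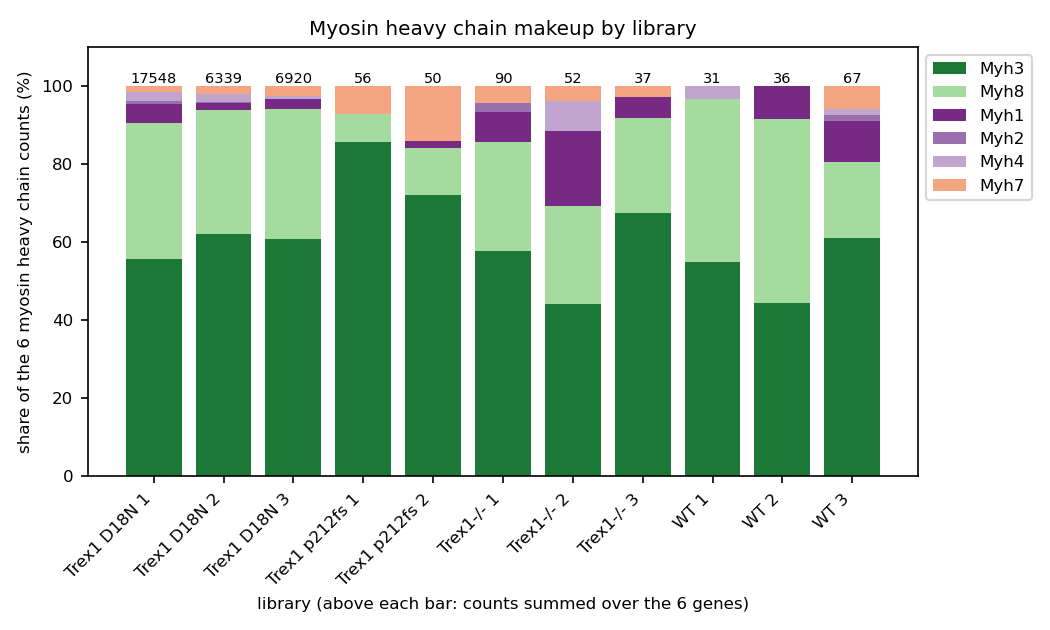
Share of each myosin heavy chain gene in the summed counts of the 6 genes, by library, with the summed count above each bar. The 3 Trex1 D18N bars rest on 6339 to 17548 counts and are mostly Myh3 and Myh8, while the bars of the other genotypes rest on 31 to 90 counts.

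Of the 6 heavy chains' counts, Myh3 took 55.8%, 62.1% and 60.8% in the D18N libraries, and Myh8 took 34.7%, 31.8% and 33.2%. The adult fast chains together took 7.92%, 4.09% and 3.53%, and Myh7 took 1.56%, 2.02% and 2.46%. The order embryonic, perinatal, adult fast, slow was the same in all 3 D18N libraries, with the adult fast share highest in replicate 1. In p212fs Myh3 took 85.7% and 72.0% of only 56 and 50 counts, with 95% Wilson intervals of 74.3% to 92.6% and 58.3% to 82.5%. In Trex1-/- it took 57.8%, 44.2% and 67.6%, and in WT 54.8%, 44.4% and 61.2%. Myh8 took 7.14% and 12.0% in p212fs against 41.9%, 47.2% and 19.4% in WT, so those groups did not overlap. For either myosin the exact two-sided permutation p between p212fs and WT was 0.2, the smallest that 2 against 3 libraries can give.

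Light chains, which stiffen and regulate the myosin lever arm, followed the same order of libraries. Mylpf, the fast regulatory light chain, had 183, 65.9 and 84.6 CPM in D18N, 3.31 and 2.70 CPM in p212fs, 1.01, 1.23 and 0.773 CPM in Trex1-/- and 1.55, 0.872 and 1.03 CPM in WT. Myl4, the embryonic and atrial essential light chain, had 178, 63.3 and 72.3 CPM in D18N, 3.53 and 3.46 CPM in p212fs, 3.08, 2.10 and 2.71 CPM in Trex1-/- and 3.10, 2.68 and 2.66 CPM in WT. Myl1, the fast skeletal essential light chain that replaces it, had 142, 52.9 and 60 CPM in D18N, 0.896 and 1.57 CPM in p212fs, 0.368, 0.102 and 0.276 CPM in Trex1-/- and 0.387, 0.125 and 0.108 CPM in WT. For Myl1 both p212fs libraries were above all Trex1-/- and WT libraries. The same window upstream of Myl1 (chr1:66945057-66945306, minus strand) is shown because p212fs stood apart for this gene, with its E-box in capitals.
Myl1: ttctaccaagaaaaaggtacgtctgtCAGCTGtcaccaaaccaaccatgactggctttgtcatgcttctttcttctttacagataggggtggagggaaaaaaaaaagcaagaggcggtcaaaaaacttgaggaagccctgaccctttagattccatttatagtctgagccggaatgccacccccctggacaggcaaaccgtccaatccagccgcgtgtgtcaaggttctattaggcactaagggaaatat
Mylk4, a muscle myosin light chain kinase, had 20.6, 10.0 and 7.08 CPM in D18N and 0 counts in WT, a level at least 219-fold higher when WT is set to a floor of 3 counts over the group. Myl4 made up 55.6%, 54.5% and 54.7% of the summed Myl4 and Myl1 counts in D18N, 79.8% and 68.8% in p212fs, 89.3%, 95.3% and 90.7% in Trex1-/-, and 88.9%, 95.6% and 96.1% in WT. The D18N libraries agreed on this share to within about a percentage point, although their levels differed by over 2-fold. The p212fs libraries lay below all WT libraries (difference -19.2 percentage points, exact permutation p = 0.2, adjusted 0.418).

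Thin filament genes were led by the 2 striated actins. Acta1, skeletal alpha-actin, had 328, 147 and 125 CPM in D18N, 25.8 and 21.4 CPM in p212fs, 1.89, 1.07 and 4.25 CPM in Trex1-/- and 5.92, 2.37 and 4.01 CPM in WT. Actc1, the cardiac alpha-actin that early skeletal muscle also uses, had 277, 101 and 104 CPM in D18N, 4.09 and 5.08 CPM in p212fs, 5.10, 0.512 and 0.773 CPM in Trex1-/- and 0.885, 0.872 and 2.39 CPM in WT. For Acta1 the p212fs libraries stood apart from Trex1-/- and WT, while for Actc1 Trex1-/- replicate 1 reached the p212fs level. Upstream of Acta1 (chr8:123894776-123895025, minus strand), shown because it was the member with the clearest change in p212fs, capitals mark 2 E-boxes and 1 CArG box, the site of serum response factor.
Acta1: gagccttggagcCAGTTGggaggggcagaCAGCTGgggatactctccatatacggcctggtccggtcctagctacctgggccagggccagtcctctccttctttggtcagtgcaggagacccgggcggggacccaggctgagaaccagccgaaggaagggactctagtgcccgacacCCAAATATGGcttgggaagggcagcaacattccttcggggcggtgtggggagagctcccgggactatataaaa
Acta1 was the most abundant member per length in D18N, at 130.3 ± 72.3 CPM per kilobase of exon (SD, n = 3), followed by Mylpf at 105 ± 59.0 and Actc1 at 99.4 ± 62.4. These actins share nearly all their protein sequence with the smooth muscle actin encoded by Acta2. Acta2 had 816, 2119.8 and 2280.3 CPM in D18N, 4374 and 4215 CPM in p212fs, 1517, 1316 and 3259 CPM in Trex1-/- and 5099, 3566 and 5012 CPM in WT. Acta2 was lower in each D18N library than in every p212fs and WT library, while D18N and Trex1-/- overlapped. Both striated actins were higher in each D18N library than in all other libraries. Per 1000 Acta2 counts there were 402, 69.5 and 55.0 Acta1 counts in D18N, 5.89 and 5.07 in p212fs, 1.24, 0.817 and 1.30 in Trex1-/-, and 1.16, 0.664 and 0.801 in WT, a ratio chosen after the values were seen. Both p212fs ratios were above each Trex1-/- and WT ratio. The part of shared reads in these values was not tested. Neb, the giant nebulin that runs along the thin filament, had 101, 49.3 and 54.5 CPM in D18N, 0.672 and 1.03 CPM in p212fs, 0.966, 1.18 and 1.38 CPM in Trex1-/- and 0.664, 1.62 and 0.813 CPM in WT. Lmod2, a leiomodin that nucleates and lengthens actin filaments, had 7.88, 3.10 and 3.51 CPM in D18N and 2 counts over the 3 WT libraries. Lmod3, its skeletal relative, had 11.5, 5.76 and 7.70 CPM in D18N, 0.112 and 0.541 CPM in p212fs, 0.0920, 0.0512 and 0 CPM in Trex1-/- and 0.0553, 0 and 0 CPM in WT. Its D18N level was 436 times the WT one, which rests on 1 count, with a counting interval of 77.9 to 17270.

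Troponins, the calcium switch of the thin filament, had the lowest median log2 difference between D18N and WT of the 9 role groups, 4.54 over the 5 that were tested, beside 7.60 for the light chains and their kinase and 7.46 for the heavy chains. Tnni1, the slow inhibitory subunit, had 130.2, 58.7 and 56.8 CPM in D18N, 1.79 and 2.49 CPM in p212fs, 1.84, 0.717 and 0.497 CPM in Trex1-/- and 0.885, 0.872 and 0.922 CPM in WT. Tnni2, its fast counterpart, had 29.6, 10.1 and 12.0 CPM in D18N, 0.672 and 1.14 CPM in p212fs, 0.368, 0.256 and 0.331 CPM in Trex1-/- and 1.16, 0.934 and 0.705 CPM in WT. For Tnni2 all D18N libraries were far above the rest, and all WT libraries were above all Trex1-/- libraries. A Tnni1 window (chr1:135799171-135799420, plus strand) is shown because the share of this subunit differed more between D18N and WT than that of Tnnt1. It holds 4 E-boxes, while the other Tnni1 window, not shown, holds 2.
Tnni1: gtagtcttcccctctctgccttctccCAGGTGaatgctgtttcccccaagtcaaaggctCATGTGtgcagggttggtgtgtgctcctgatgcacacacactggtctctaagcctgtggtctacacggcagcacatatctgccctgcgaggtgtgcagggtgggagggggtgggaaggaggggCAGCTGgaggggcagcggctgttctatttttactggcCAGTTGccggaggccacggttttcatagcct
Tnnc1, slow and cardiac troponin C, had 88.0, 37.6 and 41.2 CPM in D18N, 4.48 and 5.30 CPM in p212fs, 1.93, 2.35 and 1.60 CPM in Trex1-/- and 2.77, 2.49 and 2.01 CPM in WT. Tnnt1, the slow tropomyosin-binding subunit, had 44.2, 17.3 and 18.5 CPM in D18N, 2.35 and 2.92 CPM in p212fs, 1.20, 1.02 and 0.552 CPM in Trex1-/- and 1.38, 0.623 and 1.14 CPM in WT. Tnnt3, the fast one, had 79.5, 32.9 and 34.1 CPM in D18N, 4.03 and 3.08 CPM in p212fs, 2.94, 1.38 and 2.32 CPM in Trex1-/- and 2.16, 1.62 and 2.49 CPM in WT. For Tnnc1, Tnnt1 and Tnnt3 both p212fs libraries exceeded all Trex1-/- and WT libraries. Tnni1 took 81.5%, 85.4% and 82.6% of the Tnni1 and Tnni2 counts in D18N, 72.7% and 68.7% in p212fs, 83.3% in the 1 Trex1-/- library with enough counts (replicate 1), and 43.2%, 48.3% and 56.7% in WT. Tnnt1 took 35.8%, 34.5% and 35.1% of the Tnnt1 and Tnnt3 counts in D18N and 39.1%, 27.8% and 31.3% in WT, where the groups overlapped. The slow share of troponin I was thus as high in that Trex1-/- library as in D18N, and that of troponin T was not separated between D18N and WT.

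**Figure D3:**
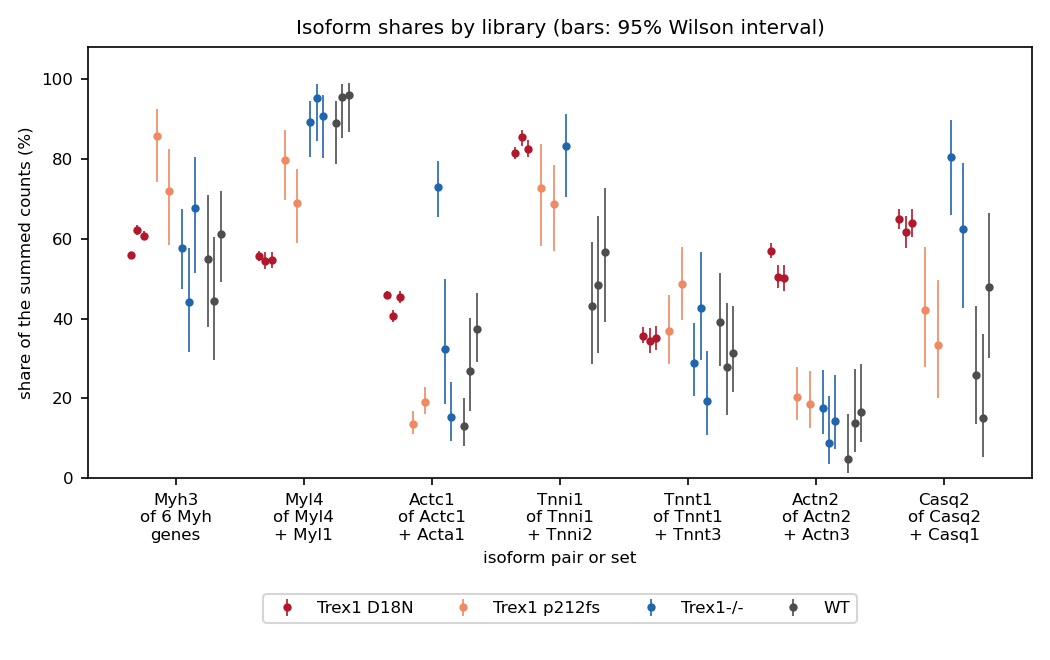
Share of the developmental, slow or cardiac gene in the summed counts of each isoform pair or set, 1 point per library with its 95% Wilson interval, for libraries with at least 20 summed counts. Within each share plotted the D18N points span fewer percentage points than the WT points, and those of Myl4, Tnni1, Actn2, Casq2 and Actc1 do not overlap the WT points.

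Z-disc genes ranged from strongly to weakly different. Des had 183, 199.99 and 175 CPM in D18N, 49 and 77.9 CPM in p212fs, 58.4, 49 and 54.2 CPM in Trex1-/- and 92.2, 52.0 and 89.2 CPM in WT, the smallest log2 difference of all members at 1.26 ± 0.22 (SE). It was also the member for which D18N replicate 1 did not exceed the mean of the other 2 libraries. Actn2, the alpha-actinin of all striated muscle, had 86.2, 32.1 and 26.9 CPM in D18N, 1.57 and 1.14 CPM in p212fs, 0.690, 0.205 and 0.442 CPM in Trex1-/- and 0.111, 0.374 and 0.488 CPM in WT. Actn3, the fast-fibre alpha-actinin, had 65.0, 31.5 and 26.8 CPM in D18N, 6.11 and 4.97 CPM in p212fs, 3.22, 2.10 and 2.65 CPM in Trex1-/- and 2.16, 2.30 and 2.44 CPM in WT. Actn2 took 57.0%, 50.5% and 50.2% of the summed counts of both genes in D18N, 20.4% and 18.6% in p212fs and 4.88%, 13.9% and 16.7% in WT. Ldb3, a PDZ-LIM protein that stabilises the Z disc, had 35.5, 18.8 and 14.9 CPM in D18N and 2.16, 3.11 and 2.49 CPM in WT. The other 6 Z-disc and attachment members had D18N means between 1.08 CPM (Myoz1) and 10.3 CPM (Xirp1). Tcap, which caps titin, had 8, 2.77 and 3.40 CPM in D18N and 0.221, 0.0623 and 0.434 CPM in WT. Myoz1 and Myoz2, calsarcins that tether calcineurin to the Z disc, had 58 and 211 counts over the D18N libraries and 3 and 0 over the WT libraries. Xirp1 and Xirp2, actin-binding Xin-repeat proteins, had 10.3 ± 6.68 and 2.52 ± 1.13 CPM in D18N (SD, n = 3), Xirp2 being at 0 in WT and at least 44.1-fold higher in D18N. Igfn1, an immunoglobulin-repeat protein of muscle, had 326 counts in D18N and 3 in WT.

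Titin and M-band genes included the longest transcript. Ttn, which spans from Z disc to M band as a molecular spring, had 219, 90.8 and 88.5 CPM in D18N, 1.29 and 0.378 CPM in p212fs, 2.12, 0.768 and 1.93 CPM in Trex1-/- and 0.221, 1.31 and 1.19 CPM in WT. Per kilobase of exon this was only 1.14 ± 0.640 CPM in D18N, because 116825 exonic bases are annotated. Mybph, a myosin-binding protein H, had 81.8, 34.5 and 33.2 CPM in D18N, 0.448 and 0.162 CPM in p212fs, 0.368, 0.461 and 0.276 CPM in Trex1-/- and 0.0553, 0.187 and 0.325 CPM in WT. In the annotation 49.9% of its exonic bases lie under Adora1 on the opposite strand, which had 0.498 to 1.31 CPM in D18N and 0.934 to 1.41 CPM in WT. Mybpc1, the slow myosin-binding protein C, had 70.2, 29.6 and 27.8 CPM in D18N, 0.560 and 0.541 CPM in p212fs, 0.414, 0.205 and 0.221 CPM in Trex1-/- and 0.0553, 0.311 and 0.325 CPM in WT. Mybpc1 thus took over 99% of the Mybpc1 and Mybpc2 counts in each D18N library. Myom2, the fast-fibre myomesin, had 44.9, 18.5 and 21.8 CPM in D18N and 0.775, 0.809 and 0.434 CPM in WT. Ckm, the muscle creatine kinase that regenerates ATP at the M band, had 4.59, 1.72 and 1.73 CPM in D18N and 0 counts in p212fs and WT, a level at least 46.7-fold higher in D18N than in WT. Its proximal window (chr7:19410844-19411093, plus strand) is shown as a low-level member whose upstream sequence holds a CAGCTG E-box.
Ckm: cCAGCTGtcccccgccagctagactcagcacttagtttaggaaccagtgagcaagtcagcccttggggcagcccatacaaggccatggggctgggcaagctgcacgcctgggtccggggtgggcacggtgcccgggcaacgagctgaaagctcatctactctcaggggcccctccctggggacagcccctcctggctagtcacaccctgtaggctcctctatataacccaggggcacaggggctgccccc

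Excitation-contraction genes covered the whole path. Cacna1s, the voltage sensor of the transverse tubule, had 26.6, 12.0 and 10.5 CPM in D18N and 0, 0.187 and 0.0542 CPM in WT. Cacng1, its gamma subunit, had 12.3, 5.43 and 5.86 CPM in D18N, 0.224 and 0.378 CPM in p212fs, 0.0460, 0.0512 and 0 CPM in Trex1-/- and 0.111, 0 and 0 CPM in WT. Ryr1, the skeletal calcium release channel, had 59.3, 22.3 and 19.5 CPM in D18N, 0.560 and 1.19 CPM in p212fs, 0.598, 0.512 and 0.939 CPM in Trex1-/- and 0.553, 0.560 and 0.759 CPM in WT. The sensor and the release channel were therefore both far higher in each D18N library than elsewhere. Atp2a1, the fast-fibre calcium pump that refills the sarcoplasmic reticulum, had 92.6, 38.5 and 27.9 CPM in D18N, 0.448 and 0.433 CPM in p212fs, 0.322, 0.717 and 0.387 CPM in Trex1-/- and 0.664, 0.747 and 0.542 CPM in WT. Casq1, the fast-fibre calsequestrin that buffers stored calcium, had 29.1, 12.0 and 14.0 CPM in D18N, 1.23 and 1.30 CPM in p212fs, 0.368, 0.461 and 0.497 CPM in Trex1-/- and 1.27, 1.06 and 0.705 CPM in WT. Casq2, the cardiac and slow form, had 53.8, 19.4 and 24.8 CPM in D18N, 0.896 and 0.649 CPM in p212fs, 1.52, 0.307 and 0.828 CPM in Trex1-/- and 0.443, 0.187 and 0.651 CPM in WT. Casq2 took 64.9%, 61.7% and 63.9% of the calsequestrin counts in D18N, 42.1% and 33.3% in p212fs, 80.5% and 62.5% in the 2 Trex1-/- libraries with enough counts (replicates 1 and 3), and 25.8%, 15.0% and 48.0% in WT. The Casq2 share of those 2 Trex1-/- libraries was as high as in D18N and above all WT libraries. Trex1-/- replicate 2, left out for having under 20 summed counts, went the other way, with 6 Casq2 and 9 Casq1 counts. The Casq2 window (chr3:102086165-102086414, plus strand) is shown because it holds a MEF2 site, in capitals beside 2 E-boxes, MEF2 being the usual partner of the myogenic factors.
Casq2: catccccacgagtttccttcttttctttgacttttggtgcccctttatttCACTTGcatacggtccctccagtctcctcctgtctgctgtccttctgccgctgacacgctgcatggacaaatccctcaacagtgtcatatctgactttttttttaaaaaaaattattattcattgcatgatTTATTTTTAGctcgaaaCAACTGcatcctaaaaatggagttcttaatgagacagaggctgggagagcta

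Assembly and turnover were represented by 4 genes. Klhl41, a Kelch protein needed for myofibril assembly, had 26.7, 11.6 and 10.9 CPM in D18N, 0.336 and 0.487 CPM in p212fs, 0.506, 0.102 and 0.276 CPM in Trex1-/- and 0.221, 0.125 and 0.217 CPM in WT. Smyd1, a methyltransferase that works with myosin chaperones, had 27.7, 10.6 and 12.5 CPM in D18N, 0.336 and 0.595 CPM in p212fs, 0.414, 0.102 and 0 CPM in Trex1-/- and 0.0553, 0.187 and 0.488 CPM in WT. Klhl40, which stabilises nebulin and leiomodin-3, had 6.58, 2.88 and 3.07 CPM in D18N, 0 CPM in both p212fs libraries and 0.111, 0.311 and 0.108 CPM in WT. Trim63, the ubiquitin ligase MuRF1 that marks sarcomere proteins for degradation, had 5.22, 1.99 and 2.51 CPM in D18N and 0.0553, 0.187 and 0.163 CPM in WT. All 4 had each D18N library above each other library. Art1, a surface ADP-ribosyltransferase of skeletal muscle, had 9.02, 3.88 and 3.29 CPM in D18N, 0.168 and 0.162 CPM in p212fs, 0.0920, 0 and 0 CPM in Trex1-/- and 0 counts in WT, so D18N was at least 94.1-fold higher than WT. In the annotation 36.5% of its exonic bases lie under Chrna10, which had no more than 0.0567 CPM in any D18N library. Tmem182, a muscle membrane protein, had 9.08, 4.10 and 4.46 CPM in D18N, 0 CPM in both p212fs libraries, 0.0460, 0 and 0.0552 CPM in Trex1-/- and 0.0553, 0 and 0 CPM in WT, a ratio of 308 between D18N and WT (95% counting interval 54.9 to 12200).

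The D18N libraries differed among themselves in a common direction. Replicate 1 had a median of 2.41 times the mean CPM of replicates 2 and 3 over the 48 tested members, and it was the highest of the 3 libraries for 47 of them. Over 16721 genes the same ratio had a median of 1.02 and replicate 1 was highest for 41.7%. For 39 members the ratio lay between 2 and 3, for 6 it was under 2 and for 3 it was over 3. Those 3 were the adult fast myosins, Myh4 at 4.31, Myh1 at 6.11 and Myh2 at 12.3, while Des at 0.975, Xirp2 at 1.49 and Myom1 at 1.67 were lowest. Replicate 1 was also the female library of this group, so the sex pattern and the level cannot be told apart within D18N.

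**Figure D4:**
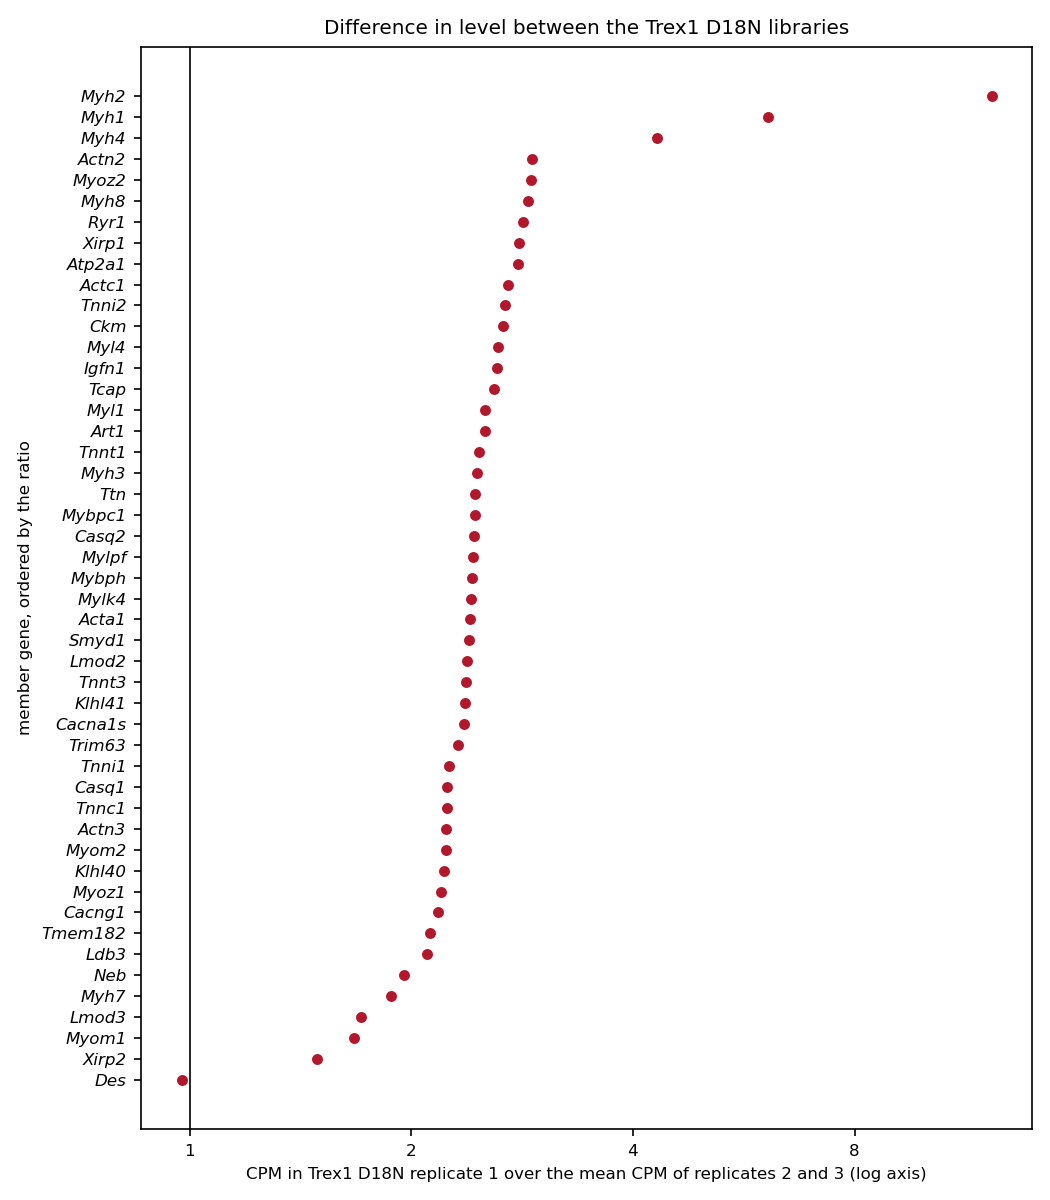
CPM in Trex1 D18N replicate 1 over the mean CPM of replicates 2 and 3 for the 48 tested members, on a log axis, with the line at 1 marking equal levels. Most members lie between 2 and 3, the adult fast myosins Myh4, Myh1 and Myh2 lie above, and Des is the member below 1.

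Genes of myoblast commitment, differentiation and fusion were also higher in D18N, while the precursor gene Pax3 was not. The 10 genes of the skeletal muscle progenitor list summed to 219, 85.3 and 90.7 CPM in D18N, 5.71 and 5.14 CPM in p212fs, 2.87 to 4.04 CPM in Trex1-/- and 1.81 to 2.60 CPM in WT. Pax3, a factor of early muscle and neural crest precursors, had 0.510, 0.388 and 0.390 CPM in D18N and 1.49, 0.809 and 0.705 CPM in WT, and Pax7, the satellite cell factor, had 5, 0 and 0 counts in D18N and 0 in WT. Myog, the myogenin that switches myoblasts to differentiation, had 56.7, 23.8 and 23.0 CPM in D18N and 0, 0.125 and 0 CPM in WT. Mymk, the fusogen myomaker, had 41.5, 16.6 and 19.4 CPM in D18N and 0.332, 0 and 0.108 CPM in WT, and Myod1, the MyoD gene, had 20.6, 9.36 and 7.19 CPM in D18N and 0, 0.0623 and 0 CPM in WT. Chrna1, an acetylcholine receptor subunit counted on this list and on the receptor list below, had 62.4, 23.0 and 29.4 CPM in D18N. The sum of the progenitor list was thus carried by Chrna1 and the differentiation and fusion genes and was highest in D18N replicate 1. Heart markers were mixed: of the 14 cardiomyocyte genes 8 were tested and 1 was past the threshold and higher in D18N, as were 12.2% of all genes. This was Tnnt2, cardiac troponin T that embryonic skeletal muscle also uses, with 91.8, 49.1 and 38.0 CPM in D18N and 9.07, 5.48 and 7.16 CPM in WT. Of the 8, 5 had a log2 difference above 0. Tnni3 had 2.10, 3.16 and 2.01 CPM in D18N and 1.33, 1.43 and 1.46 CPM in WT. Gata4 had 30.1, 4.43 and 10.4 CPM in D18N and 11.4, 5.23 and 10.1 CPM in WT. Myl7 and Nkx2-5 were at 0 in all D18N libraries and Myh6 had 0.227, 0.166 and 0.0558 CPM there. The list summed to 134, 63.0 and 57.9 CPM in D18N, mostly Tnnt2, and 20.4 to 27.4 CPM in WT. The 12 macrophage genes were lower in D18N, with summed levels of 132, 67.6 and 63.8 CPM against 784, 1051 and 910 CPM in WT. Of the 12 smooth muscle and myofibroblast genes, 1 was past the threshold and higher in D18N (Synpo2), beside the 12.2% of all genes. Another 4 were lower (Actg2, Acta2, Myl9 and Tagln), for which no share over all genes is given here. Their summed level was 1995, 4119 and 4438 CPM in D18N and 5709 to 7345 CPM in WT. Neuron and glia markers summed to 213 to 301 CPM in D18N against 342 to 511 CPM in WT, and endothelial markers to 22.3 to 27.2 CPM against 14.7 to 21.5 CPM. Their part in the level of the members was not tested.

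Muscle genes outside the 50 were counted on lists, also put together with the D18N result known. Their counts stand for scale only, beside the 12.2% of all genes called higher in D18N than in WT. No share of all genes called lower is given for that comparison. Among other sarcomere genes 13 of 23 tested were past the threshold and higher in D18N than in WT and 1 was lower (Cryab). Myom3, a further myomesin, had 28.6, 10.2 and 10.4 CPM in D18N and 0.111, 0 and 0.108 CPM in WT, and Myot, the Z-disc protein myotilin, had 8.85, 5.26 and 4.68 CPM in D18N and 0.111, 0.0623 and 0.108 CPM in WT. Among other calcium and excitation-contraction genes 12 of 22 were higher and 0 lower, among them Srl, the sarcoplasmic reticulum protein sarcalumenin, and Sln, the calcium pump regulator sarcolipin. Srl had 71.2, 27.4 and 33.8 CPM in D18N and 2.77, 5.17 and 3.80 CPM in WT, and Sln had 7.37, 2.71 and 4.41 CPM in D18N and 0 counts in WT. Of 13 muscle energy genes 6 were higher and 1 (Slc25a4) lower, with Mb, myoglobin, at 19.7, 11.8 and 16.3 CPM in D18N and 0.221, 0 and 0.163 CPM in WT. Of 7 acetylcholine receptor and synapse genes 6 were higher, among them Chrng, the fetal gamma subunit, at 38.0, 15.6 and 14.4 CPM in D18N and 0.111, 0 and 0 CPM in WT. Of 13 myogenic regulators and fusion genes 9 were higher and 1 (Srf) lower. The adult receptor subunit Chrne and the adult calcium buffer Pvalb were too low to test. Compared with Trex1-/-, 46 of the 48 members were past the threshold and higher in D18N, where 3.95% of all genes were called higher. Compared with D18N, 47 of the 48 were lower in p212fs, where 20.1% of all genes were called lower.

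The comparisons that hold no D18N library were not the main ground for picking the genes, but the levels in those libraries were also in view. Their p-values are therefore not free of that choice. These comparisons share the WT, p212fs and Trex1-/- libraries with each other, so their results are not independent of one another. Between p212fs and WT, 3 of the 48 tested members rose and none fell, while 8.13% of all genes were called higher and 8.95% lower. The share of 3 in 48 cannot be read against this background, because when p212fs and WT were fitted alone only 24 of the 48 passed the filter on low counts, and 8 of those were called. All p212fs libraries lay above all WT libraries for 19 of the 48 and below them for 4, where 30.8% and 23.4% of all genes did so. The median log2 difference of the members was 0.72, beside -0.02 for all genes, and 11 members had an unadjusted p under 0.05. No share over all genes is given here for the 11. These counts and this median are likewise not read against all genes, because they include members that passed the filter through their D18N counts. Acta1 had 25.8 and 21.4 CPM in p212fs and 5.92, 2.37 and 4.01 CPM in WT, a log2 rise of 2.45 ± 0.55 (SE) (edgeR adjusted p = 0.0170). Actn3 rose by 1.21 ± 0.35 (SE) on the log2 scale (adjusted p = 0.0358), with 6.11 and 4.97 CPM in p212fs against 2.16, 2.30 and 2.44 CPM in WT. Lmod3 had 12 counts over the 2 p212fs libraries and 1 count over the 3 WT libraries, a ratio of 17.4 (95% counting interval 2.57 to 742, edgeR adjusted p = 0.0447). Lmod3 did not pass the filter with p212fs and WT alone, and its call held in 8 of 17 alternatives, being lost with limma-voom, the replicate block and the sex pattern as a term. In each of these 3 genes both p212fs libraries lay above all WT libraries. Myl1 was next, with a log2 difference of 2.46 ± 0.76 (SE) and an adjusted p of 0.0502 by the same test, and Art1, Cacng1, Mylpf, Tnnc1, Klhl40, Actn2 and Tnnt1 followed at adjusted p of 0.0834 to 0.0977, Klhl40 alone being lower in p212fs. Art1, Cacng1 and Klhl40 did not pass the filter with p212fs and WT alone either. None of the myosin heavy chains had an unadjusted p under 0.05, and they did not share a direction. In CPM Myh7 was above all WT libraries in both p212fs libraries, while Myh8 was below all of them (log2 differences 1.85 ± 0.97 (SE) and -1.61 ± 0.90 (SE)). For Myh7 this order rests on library totals, since p212fs replicate 1 and WT replicate 3 each had 4 counts.

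Calls between p212fs and WT rested on few libraries. Without p212fs replicate 1, without p212fs replicate 2 or without WT replicate 2, no member was past the threshold, and without WT replicate 3 there was 1, while 9 were past it without D18N replicate 1 and 8 with the sex pattern as a term. All p212fs libraries had the male and all WT libraries the female pattern, so that genotype and sex pattern cannot be told apart between these groups alone.

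**Figure D5:**
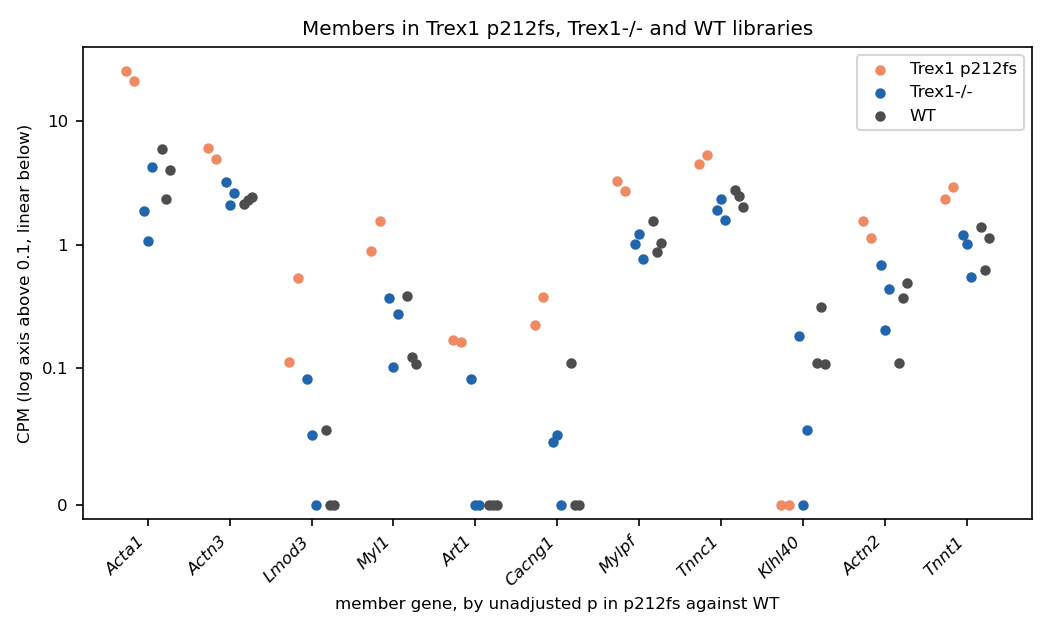
CPM of the 11 members with an unadjusted p under 0.05 between Trex1 p212fs and WT, 1 point per library, ordered by that p, with a log axis above 0.1 CPM and a linear one below. The p212fs points lie above every Trex1-/- and WT point for 10 of the 11 members, and those of Klhl40 are at 0. The 11 were picked by that p, so their distance from WT follows largely from the choice. Lmod3, Art1, Cacng1 and Klhl40 did not pass the filter on low counts with p212fs and WT alone.

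Against Trex1-/-, 8 of the 48 members rose in p212fs and none fell, where 15.4% of all genes were called higher and 17.1% lower. The 8 were Acta1, Tnnc1, Casq1, Mylpf, Myl1, Tnnt1, Actn3 and Cacng1. With p212fs and Trex1-/- fitted alone, 24 members passed the filter and 7 were called, so the share of 48 is likewise not read against the background. Acta1 had 25.8 and 21.4 CPM in p212fs against 1.89, 1.07 and 4.25 CPM in Trex1-/-, a log2 rise of 3.26 ± 0.58 (SE) (edgeR adjusted p = 0.00357). In the male Trex1-/- libraries alone it had 1.89 and 4.25 CPM, both below the p212fs libraries of the same sex pattern. Acta1 stayed past the threshold under all 18 alternatives, with adjusted p of 3.81e-05 to 0.0335. Myl1 rose by 2.22 ± 0.72 (SE) on the log2 scale (edgeR adjusted p = 0.0380) and Cacng1 by 2.89 ± 0.99 (SE) (edgeR adjusted p = 0.0444). Cacng1 had 11 counts over the p212fs and 2 over the Trex1-/- libraries, and its call held in 8 of 17 alternatives. It did not pass the filter with p212fs and Trex1-/- alone, and so was tested only through its counts in D18N. Tnnc1, Casq1, Mylpf, Tnnt1 and Actn3 rose by 1.01 to 1.52 on the log2 scale, with adjusted p of 0.0210 to 0.0413 by the same test. Casq1 rose against Trex1-/- but had 1.23 and 1.30 CPM in p212fs and 1.27, 1.06 and 0.705 CPM in WT, where the groups overlapped. Without Trex1-/- replicate 3 or p212fs replicate 2 the 8 calls became 1, without p212fs replicate 1 they became 2 and without Trex1-/- replicate 2 they became 3.

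Between Trex1-/- and WT no member was past the threshold by edgeR, as was none of all 16990 genes (0%), and DESeq2 and limma-voom called none of the members either. At an unadjusted p under 0.05 there were 4 members: Tnni2, Casq1, Des and Myoz2. Myoz2 had 12, 0 and 1 counts in Trex1-/- replicates 1, 2 and 3 and 0 in WT, so it rests mostly on replicate 1. Des had a lower mean in Trex1-/-, with overlapping groups. Tnni2 had 0.368, 0.256 and 0.331 CPM in Trex1-/- and 1.16, 0.934 and 0.705 CPM in WT, and Casq1 had 0.368, 0.461 and 0.497 CPM in Trex1-/- and 1.27, 1.06 and 0.705 CPM in WT, so for both all Trex1-/- libraries lay below all WT ones (adjusted p = 0.148 and 0.157 by edgeR). In 1 member (Myoz1) all Trex1-/- libraries lay above all WT libraries, and in 2 below, where 10% and 12.5% of all genes did so. The median log2 difference of the members was 0.20, beside 0.01 for all genes. These counts and this median include members that passed the filter through their D18N counts, and so are not read against all genes. A difference was not detectable at this depth and spread. Trex1-/- replicate 1 stood apart from its companions in some heart-type genes but not in others. In replicates 1, 2 and 3 Actc1 had 111, 10 and 14 counts. Myh6, the atrial and adult heart myosin, had 103, 2 and 0 counts, and Myl7, the atrial light chain, had 17, 0 and 0. On the same cardiomyocyte list Nkx2-5 had 1, 0 and 3 counts, Nppb 7, 8 and 12, and Tbx5 142, 129 and 139. Among p212fs libraries, replicate 2 had 44 counts of Myh6 against 1 in replicate 1, while Mybpc3 had 1 count against 8. The Actc1 share of the Actc1 and Acta1 counts in Trex1-/- ran from 15.4% to 73.0%, against 13.0% to 37.3% in WT. Of 15 share comparisons of p212fs or Trex1-/- with WT, 6 had groups that did not overlap, and none passed adjustment over all 23 shares compared (smallest exact permutation p = 0.2, smallest adjusted p = 0.418). The 1 of these in Trex1-/-, that of Casq2, left out replicate 2.

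In the upstream windows printed above, capitals marked letters only, and such matches are no evidence of binding. RefSeq windows of 250 bases were found for 40 of the 50 members, 43 windows in all, and compared with 32851 windows of all genes, on both strands. An E-box CANNTG was present in 81.4% of the members' windows and 66.2% of all windows. The CAGCTG form, a subset of these, was present in 48.8% (21 windows) and 13.0%. A MEF2 site was found in 20.9% (9 windows) and 2.92%, and a CArG box in 14.0% (6 windows) and 1.47%. A TATAAA box was in 27.9% and 12.4%, and the MCAT core CATTCC in 23.3% and 12.6%. Of the 6 windows shown, those of Acta1, Myl1, Tnni1 and Ckm hold CAGCTG, that of Myh3 holds another E-box form, and that of Casq2 holds the MEF2 site.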

How the data were processed

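RNA-seq counts per gene were deposited as 1 table; the tools were fastp, HISAT2 and featureCounts, with build GRCm39, per the submitters' processing notes, while versions, options and strand setting are not given in the sources used here. The deposited counts are raw whole numbers. Of 55578 lines, 1654 without a gene name (0.0804% to 0.129% of a library's counts) were left out. The 50 members and all gene lists were chosen with earlier results of these data known.

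From the counts, CPM were computed over named genes, and levels per kilobase with exon lengths of GENCODE M21 (GRCm38), another build than that of the counts. Differences came from edgeR 4.0.16 (R 4.3.3) quasi-likelihood tests with robust estimation, TMM, a minimum count of 10 in filterByExpr, genotype as the only term and all 11 libraries in 1 fit. Benjamini-Hochberg adjustment ran over 16990 genes with a threshold of 0.05. Standard errors are the log2 difference over the root of F. Isoform shares used exact two-sided permutation tests over libraries with at least 20 summed counts, adjusted over 23 comparisons. Wilson and counting intervals are at 95% and, like the floor of 3 counts, cover counting error only. The scripts were tested on simulated data. Values in every library are given for the myosin heavy chains, for the highest members of each other role and for members past the threshold without D18N. The alternatives were DESeq2 1.42.0, limma-voom (limma 3.58.1), DESeq2-style scaling, no filter, a replicate block, the sex pattern as a term, only the groups compared, and each library left out.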

Additional observations from a re-analysis of the deposited data

How the results depend on the processing

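In comparisons that hold Trex1 D18N the calls follow from how the members were chosen, so their ranges are no sign of stability. Between p212fs and WT the 3 calls became 8 with DESeq2, 8 with the sex pattern as a term, 8 with only the 2 groups (24 members then tested) and 1 with limma-voom, and ranged from 0 to 9 with 1 library left out. Between p212fs and Trex1-/- the 8 calls became 1 with limma-voom and ranged from 1 to 11 with 1 library left out. Between Trex1-/- and WT 1 member was called without WT replicate 2 (Des, lower in Trex1-/-), and the range was 0 to 1. Of the isoform shares, 11 comparisons had groups that did not overlap. With a minimum of 100 summed counts only 2 comparisons remained, 1 of them without overlap, and with 1 library left out the number ranged from 6 to 15, the low value arising because 1 p212fs library allows no test. For members with an unadjusted p under 0.05, no log2 difference of D18N, p212fs or Trex1-/- against WT, or of p212fs against Trex1-/-, reversed under the alternatives run. The labels do not say whether replicate numbers pair the libraries. Same-numbered libraries correlated at -0.209 to 0.14 over 15 pairs, and 2 pairs were over 0.1. Libraries of different number correlated at -0.209 to 0.234 over 30 pairs, 2 of them over 0.1. These were deviations from the means of groups of 2 or 3 libraries, so they cannot decide whether numbers pair libraries. With the replicate block 3 members were called between p212fs and WT, 0 between Trex1-/- and WT and 7 between p212fs and Trex1-/-, beside 47 between D18N and WT. Scaling totals by TMM, an alternative chosen after seeing the data, moved no genotype's mean summed level of the 49 members by more than its SD. Outside D18N, depth limits most members to a few counts a library.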
